A study of Drosophila virilis and Drosophila willistoni and Drosophila miranda with 119 samples.

Results

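Drosophila sechellia is a fruit fly of the Seychelles that breeds on noni fruit, and D. simulans and D. mauritiana are its closest relatives. Its early embryo was described here through 3444 genes, out of 3764 with orthologs across all 14 species studied, which reached at least 1 FPKM (fragments per kilobase of transcript, scaled to the mapped fragments) at stage 2 or stage 5. Of these genes, 2961 reached 1 FPKM at both stages, 119 at stage 2 alone and 364 at stage 5 alone. The 6 genes just inside the minimum had a higher value of 1.00 to 1.05 FPKM, and the 6 just outside it had 0.949 to 0.992 FPKM.

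RNA, labelled as polyadenylated for D. sechellia, was sequenced from single embryos, 3 of D. sechellia at stage 2 and 3 others at stage 5, out of 119 embryos of 14 species. The flies of every species were kept on molasses food, and embryos were staged from images. No strain, sex or age of the parents is given in the sources used here for D. sechellia. The deposited values combine the embryos of a group, so there was 1 value per gene, species and stage, the spread between the 3 embryos could not be seen and the sequencing depth is unknown. The raw data of D. sechellia at both stages are labelled as mixed with those of D. melanogaster. The same label is on both stages of D. mojavensis, D. persimilis, D. santomea and D. simulans, and on stage 2 alone of D. virilis. The other 12 species with both stages served as the comparison: D. simulans, D. mauritiana, D. yakuba, D. santomea, D. erecta, D. ananassae, D. pseudoobscura, D. persimilis, D. miranda, D. willistoni, D. mojavensis and D. virilis, in groups of 3 to 7 embryos. Embryos of D. miranda and D. pseudoobscura are labelled as reanalyzed and as total RNA, from crosses of named strains (MSH22 by SP138 and Flagstaff 14 by PP1134). Their stage 5 embryos are titled latest5 and carry a sex, and neither stage is labelled as mixed or not.

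An embryo at stage 2 has not yet switched on its own genome and lives on mRNA that the mother loaded into the egg. By stage 5, the cellularizing blastoderm, much of that maternal mRNA has been destroyed and the zygotic genome is transcribed. A gene's change from stage 2 to stage 5 therefore sums what was cleared and what was made. In pooled values, loss of mRNA and dilution among newly made mRNA cannot be told apart.

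The labelled stages had the mRNAs that define them. The germ plasm organiser osk stood at 499 FPKM at stage 2 and 2.66 at stage 5, the anterior determinant bcd at 76.0 and 0.345, and the cell cycle regulator gnu at 322 and 2.77. The zygotic genes went the other way. The pair-rule genes ftz and prd reached 169 and 133 FPKM at stage 5 from 0.108 and 0.0445, the mesoderm genes twi and sna reached 156 and 170.5 from 0.0625 and 0.0699, and the gap gene Kr reached 149 from 0.212. The terminal gap gene tll was listed at 0 at stage 2 and at 72.6 FPKM at stage 5, and the X-counting gene sisA went from 0.262 to 99.99 FPKM. Of the lists of markers of other tissues, eggshell genes summed to 0.122 FPKM at stage 2 and 0.474 at stage 5, with 12 of 14 at 0, and both gut genes together to at most 0.0826. Yolk protein and fat body genes summed to 20.7 FPKM at stage 5, above the range of 0.304 to 11.6 in the other species, from Lsp2 (13.1) and Fbp2 (6.78), with 2 of 7 at 0. Neuron markers summed to 19.8 FPKM at stage 5 within 0.136 to 122 in the others, muscle genes to 675 within 65.3 to 877, and testis genes to 3.54 within 0.435 to 198. The part of other tissues in the results was not tested.

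The change of each gene was taken as log2(FPKM+1) at stage 5 minus that at stage 2, and its departure as this change minus the median change of the other 12 species. On this scale 1318 of the 3444 genes rose by at least 1 in D. sechellia and 810 fell by at least 1. Of the 1149 genes whose median in the other species rose by at least 1, 963 did so in D. sechellia (83.8%), against 72.7% to 84.1% in each other species set beside its own 12. Of the 597 genes whose median fell by at least 1, 494 fell in D. sechellia (82.7%), against 59.1% to 84.9%, with a median of 67.7% in the others. Across genes, which are not independent replicates and share the same libraries, the change in D. sechellia had a Pearson correlation of 0.866 with the median of the others, and the other species had 0.752 to 0.895. D. sechellia thus lay among the species nearest to the median of the others in these measures, and D. simulans had the highest correlation. That median includes 5 other species of the melanogaster subgroup: D. simulans, D. mauritiana, D. yakuba, D. santomea and D. erecta. These 5 had correlations of 0.852 to 0.895, and the species outside the subgroup had 0.752 to 0.835. How far the choice of species sets this order was not tested.

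**Figure D1:**
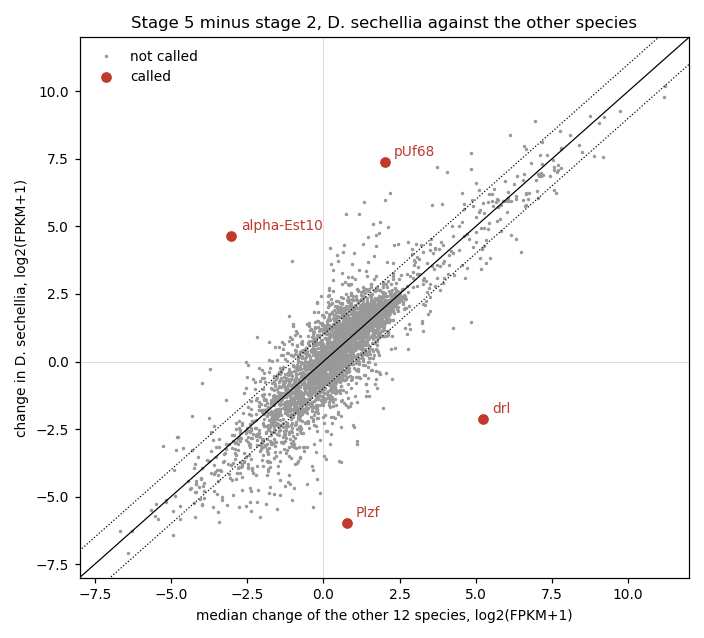
Change from stage 2 to stage 5 in D. sechellia (vertical axis) against the median change of the other 12 species (horizontal axis), both in log2(FPKM+1), for 3444 genes. The solid line marks equal changes and the dotted lines a departure of 1; red points are the genes called different, except Ipk1, which lies off the plot at a change of -21.86 against a median of 1.34.

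A departure of at least 1 was found for 883 of the 3444 genes (25.6%), 359 higher and 524 lower. Over all 3722 genes tested, 9.78% departed higher, 14.5% lower and 24.3% either way. Most of the genes tested are these same genes, so the 2 shares cannot differ much. The other species had 22.8% to 38.6%, with a median of 32.3%. The split between higher and lower depended on the scaling. Higher departures made up 40.7% as deposited, 47.8% (375 higher, 409 lower) after quantile normalisation and 54.0% (438 higher, 373 lower) when each column was scaled to 1 common total over genes under 100000 FPKM. The median departure over the 3444 genes was -0.11, became 0.08 with equal totals and 0.03 after quantile normalisation, and was -0.19 to 0.18 in the other species. The departures lay more often at stage 5 than at stage 2. With columns centred on their medians, 281 of the 359 higher and 374 of the 524 lower departures had the larger difference in level at stage 5. The change lay outside the whole range of the other 12 species for 394 genes (11.4%, against 11.1% of all genes tested), and 129 of these departed by at least 1 higher and 165 by at least 1 lower.

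**Figure D2:**
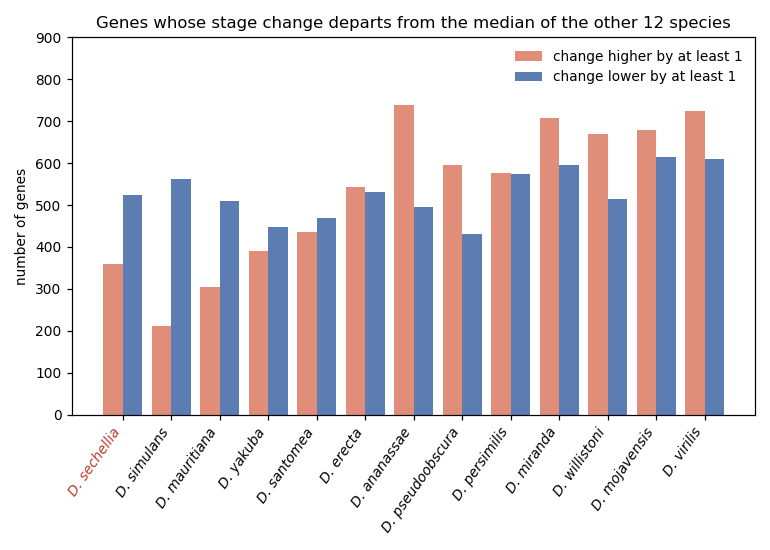
Number of genes (vertical axis) at 1 FPKM or more in a species whose change from stage 2 to stage 5 was higher (orange) or lower (blue) by at least 1, in log2(FPKM+1), than the median of the other 12 species, for each of 13 species. D. sechellia had 359 higher and 524 lower, 883 in all, against 772 in D. simulans, 814 in D. mauritiana, 838 in D. yakuba and 906 to 1332 in the other 9 species.

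Each change in D. sechellia was tested against those of the other 12 species with limma across all 3722 genes, which takes the spread between the other species as that of D. sechellia. The fit takes the species as independent units, and a permutation takes them as interchangeable. Some of them, such as D. simulans and D. mauritiana, are closer relatives of D. sechellia than others. Only 5 genes were called at an adjusted p under 0.05 with a departure of at least 1 (0.134%), 2 higher (0.0537%) and 3 lower (0.0806%). At an unadjusted p under 0.05 there were 90 genes (2.42%). For a single gene, an exact permutation over which of the 13 species is D. sechellia cannot go below p = 0.0769. Against the 4 other species with raw data mixed with D. melanogaster at both stages, 0 genes were called higher and 2 lower, namely drl and Ipk1. Against the 7 species without that label at either stage (5 labelled as not mixed, and D. pseudoobscura and D. miranda, for which it is not given), 1 was called higher and 2 lower. Without D. pseudoobscura and D. miranda, drl, Plzf, Ipk1 and pUf68 were called, alpha-Est10 was not (limma adjusted p = 0.114) and CG16854 was (adjusted p = 0.0435).

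The receptor gene drl had a high stage 2 value in D. sechellia and in none of the others. It encodes derailed, a Ryk-family receptor for Wnt5 that guides axons. Its mRNA stood at 105 FPKM at stage 2 in D. sechellia and at 0 to 0.0512 FPKM in the other 12 species, with 0.0512 in D. simulans, 0.0452 in D. mauritiana and 0.0226 in D. melanogaster. No other species came near the value of D. sechellia, which is a single pooled one and whose origin was not tested. At stage 5 D. sechellia had 23.3 FPKM and the others 12.2 to 65.2 (median 38.6), so the stage 5 levels overlapped. The change was -2.13 in D. sechellia and between 3.69 and 6.05 in the others, and the departure was -7.38 (limma SE 0.75, adjusted p = 0.000145). The call held in 30 of 30 alternatives, with the departure between -10.49 and -5.08.

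The mRNA of Plzf, a zinc-finger protein, stood at 1098 FPKM at stage 2 in D. sechellia. The other species had 1.82 to 15.0 FPKM there except D. miranda, which had 108. At stage 5 D. sechellia had 16.6 FPKM and the others 5.41 to 133 (median 12.2). The stage 2 levels did not overlap and the stage 5 levels did. The departure of the change was -6.74 (SE 0.89, limma adjusted p = 0.00148). Against the 4 other mixed species alone (departure -6.41) the adjusted p was 0.188, and against the 7 species without that label (-7.07) it was 0.0690.

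Ipk1, an inositol phosphate kinase, was listed at 107534008.7 FPKM at stage 2 in D. sechellia and at 27.3 at stage 5. In the other species it stood at 3.32 to 9.10 FPKM at stage 2 and 4.83 to 24.5 at stage 5. Such a value is larger than the sum of all genes below 100000 FPKM in that column, which was 217210. Values of 100000 FPKM or more occurred 15 times in the table, for 9 genes in 8 of the columns, and this was the single one in D. sechellia. The departure was -23.20 (SE 0.79, limma adjusted p = 4.81e-11), and its size is that of the deposited value, which may be a failed estimate. Apart from it, the stage 5 level of D. sechellia was above the highest of the other species, 24.5 FPKM.

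The splicing factor pUf68 showed the reverse of drl. Its mRNA was at 0.0238 FPKM at stage 2 in D. sechellia and at 20.5 to 82.2 FPKM in the other species, with 37.1 in D. simulans, 35.7 in D. mauritiana and 41.2 in D. melanogaster. At stage 5 it reached 168 FPKM, within the 84.3 to 248 of the others. The value of D. sechellia was thus near 0 at stage 2, where every other species had at least 20.5 FPKM, and among theirs at stage 5. This stage 2 value is a single pooled one and, like other values near 0, may be a failed estimate. The departure was 5.34 (SE 0.57, limma adjusted p = 0.000154). The call held in 29 of 30 alternatives and was lost against the 4 other mixed species (departure 5.49, adjusted p = 0.0657).

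The carboxylesterase gene alpha-Est10, of the alpha-esterase cluster, rose where it fell in each of the other 12 species. It went from 0.715 FPKM at stage 2 to 41.5 at stage 5 in D. sechellia. D. simulans went from 0.600 FPKM to a listed 0, D. mauritiana from 7.62 to 1.75, and the median of the 12 from 13.1 to 0.269. At stage 5 D. sechellia lay above all others, of which D. yakuba was next with 16.2 FPKM. The departure was 7.65 (SE 1.35, limma adjusted p = 0.0433). This call was lost in 18 of 30 alternatives. Leaving out D. mauritiana, D. santomea, D. erecta, D. ananassae, D. pseudoobscura, D. persimilis, D. miranda, D. willistoni or D. mojavensis singly each ended it, with adjusted p-values of 0.0544 to 0.0842 and departures of 7.59 to 7.71.

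**Figure D3:**
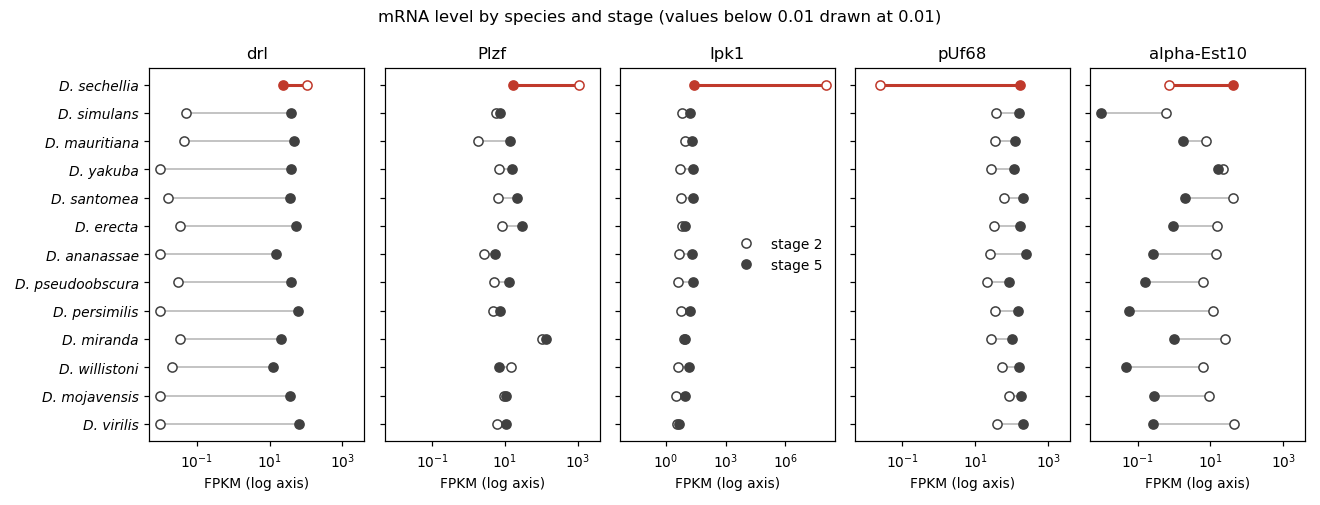
FPKM (horizontal log axis) at stage 2 (open circles) and stage 5 (filled circles) in 13 species for the 5 genes whose stage change in D. sechellia (red) was called different; values below 0.01 are drawn at 0.01 and the Ipk1 panel has a longer axis. For drl, Plzf, Ipk1 and pUf68 the stage 2 value of D. sechellia stands apart, and for alpha-Est10 the stage 5 value.

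The next genes by p were not called, and a value below 0.001 FPKM among them may be a failed estimate. TBPH, the fly ortholog of the RNA-binding protein TDP-43, went from 74.2 to 102 FPKM in D. sechellia and from a median of 38.6 to 246 in the others (departure -2.32, limma adjusted p = 0.0783). Its stage 5 level lay below all others, which had 126 to 560 FPKM. Leaving out D. ananassae brought its adjusted p to 0.0375. CG7033 went from 151 to 5.23 FPKM, against 43.3 to 190.4 FPKM at stage 5 in the others (departure -3.34, adjusted p = 0.144). CG31855 had 28.1 FPKM at stage 2 and below 0.001 at stage 5, where the others had 24.2 to 379 (departure -4.76, adjusted p = 0.144).

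Of the genes not called, those named next had the highest and lowest departures among changes outside the range of the others, and they were chosen after their values were seen. Among the highest was Zyx, which encodes the focal adhesion protein zyxin. It had 0.116 FPKM at stage 2, below the 2.35 to 94.2 of the other species, and 48.3 at stage 5, within their 17.3 to 72.0. D. mauritiana and D. simulans were the lowest of the others at stage 2 (2.35 and 3.66). Their changes of Zyx were 4.02 and 2.53, against a median of 0.75. The Slit receptor gene robo went from 0.545 to 36.6 FPKM, above the highest stage 5 value of the others, 16.7. The tyrosine kinase gene FER reached 154 FPKM at stage 5 against at most 60.2, in D. mauritiana, and D. simulans was next with 53.0. Faa, which encodes the last enzyme of tyrosine breakdown, reached 15.2 FPKM against a median of 0.419 and at most 11.2, and the synaptotagmin gene Syt7 reached 12.4 against at most 7.94. CG10924 reached 75.3 FPKM against at most 23.2 and CG12253 reached 129 against at most 77.1. The change of robo was 4.61 in D. sechellia, 3.48 in D. simulans and 3.56 in D. mauritiana, against a median of 1.45. All were below 1 FPKM at stage 2 in D. sechellia except CG12253, at 5.57, and none was called. IP3K1, an inositol trisphosphate kinase gene, stood at 22.0 and 12.1 FPKM at the 2 stages while the median of the others went from 23.8 to 0.456. D. mauritiana also kept it, at 54.0 and 18.1 FPKM, and D. simulans went from 20.7 to 0.536.

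At the other end were mRNAs with high stage 2 or low stage 5 levels. Smn, which encodes the protein that assembles splicing snRNPs, went from 41.2 FPKM to below 0.001, against a median of 50.6 in the others at stage 5. The lowest of the others was D. mauritiana, which went from 18.7 to 0.120 FPKM (change -4.14, beside -5.40 in D. sechellia), and D. simulans had 34.0 at stage 5. The value of D. sechellia below 0.001, like that of Dbp21E2 next, may be a failed estimate. Dbp21E2, a DEAD-box protein gene, went from 7.20 FPKM to below 0.001, against 5.59 to 58.0 (departure -4.15, limma adjusted p = 0.502). That gene was called without D. virilis (adjusted p = 0.0400). The germline deubiquitinase gene otu went from 112 to 3.45 FPKM and the transcription factor gene Mitf from 98.0 to 2.27, where the medians of the others at stage 5 were 6.00 and 8.15. Both had stage 5 values within the range of the others and high stage 2 values. For otu the stage 2 value was above all the species compared (at most 97.1). It was below that of D. melanogaster, which is not among them and had 147 FPKM at stage 2. CG32638 went from 184 to 2.48 FPKM and CG6180 from 386 to 10.03, each from a stage 2 level above all others (at most 150.3 and 193). At stage 5 the closest relatives were as low: D. simulans and D. mauritiana had 1.21 and 3.08 FPKM of otu, 0.825 and 1.31 of Mitf, 1.89 and 2.30 of CG32638, and 6.58 and 3.88 of CG6180. CG3408, CG9752, CG12129 and CG5726 ended at 2.19 to 6.07 FPKM, with medians of 39.9 to 71.4 in the others. This low level was shared with D. simulans and D. mauritiana, which had 5.35 and 5.27 FPKM of CG3408, 4.398 and 4.00 of CG9752, 6.07 and 6.11 of CG12129, and 4.20 and 5.39 of CG5726.

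A change of at least 1 against a median of at least 1 the other way was found for 15 genes (0.403% of those tested), 4 upward and 11 downward in D. sechellia. This count came to 23 without D. simulans or without D. santomea. Besides drl, Ipk1 and alpha-Est10, the genes with a lower stage 5 level included Crc. It went from 443 to 206 FPKM, against a stage 5 range of 268 to 2287 in the others. The DNA repair gene mus210 (XPC) went from 65.9 to 26.8 FPKM against 46.4 to 298 at stage 5, and CG11417 from 21.3 to 6.88 against 12.5 to 124. All 3 lay below every other species at stage 5. Mhcl, a myosin heavy chain-like gene, went from 9.83 to 3.46 FPKM and the secreted phospholipase gene GXIVsPLA2 from 2.32 to below 0.001, against stage 5 medians of 29.1 and 34.4. The stage 5 value of GXIVsPLA2 may be a failed estimate. Those with a higher stage 5 level were CG13163 (18.7 to 47.8 FPKM), CG7900 (0.489 to 18.7) and the zinc transporter gene Zip48C (15.1 to 50.8), whose median in the others went from 16.3 to 3.96. D. simulans and D. mauritiana also rose for CG7900, with changes of 2.78 and 2.70 beside 3.72 in D. sechellia. They rose by less for CG13163 (0.36 and 0.64, beside 1.31). For Zip48C, D. simulans rose (0.86) and D. mauritiana fell (-0.73), beside 1.68 in D. sechellia. Of the 15 genes, none besides drl, Ipk1 and alpha-Est10 was called.

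The level at each stage was tested on its own, on columns centred on their medians. At stage 2, 13 genes were called higher (0.349%) and 10 lower (0.269%), and 145 had an unadjusted p under 0.05 (3.90%). At stage 5, 2 were called higher (0.0537%) and 3 lower (0.0806%), with 95 at an unadjusted p under 0.05 (2.55%). Of the 23 called at stage 2, 21 are among the 3444 genes, and 4 of them are also called in the change. The stage 5 count of higher levels was 4 without D. mauritiana or without D. yakuba.

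Of the mRNAs called higher at stage 2, several were below 2 FPKM in the stage 2 embryos of every other species. The scavenger receptor gene emp stood at 70.2 FPKM at stage 2 in D. sechellia and at most at 0.213 in the others, and at 229.9 at stage 5 against at most 1.51. It was called at both stages (stage 2 difference 5.93, limma adjusted p = 1.27e-09; stage 5 difference 7.60, adjusted p = 3.21e-06). The rhodopsin gene Rh4 stood at 43.1 and 35.4 FPKM at the 2 stages, and the others had at most 1.48 and 4.36 (stage 2 adjusted p = 1.78e-06). The mRNA of mtsh was at 38.2 and 22.1 FPKM against at most 1.05 and 12.7 (stage 2 adjusted p = 1.77e-05). CG13675 was at 36.9 and 13.2 FPKM against at most 1.07 and 2.58, and was called at both stages. The sugar receptor gene Gr64f was at 2.78 FPKM against at most 0.113, and CG17739 and CG8245 at 4.12 and 3.53 against at most 0.481 and 0.0950. CG6330, at 11.0 FPKM against at most 3.85 in the 12 others, was at 11.2 in D. melanogaster. For emp, Rh4, mtsh and CG13675, by contrast, the stage 2 value of D. melanogaster was at most 0.0871 FPKM.

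Besides drl, Plzf and Ipk1, the other higher calls were pelo and CSN3, whose mRNAs were above 25 FPKM at stage 2 in every species. The ribosome rescue factor gene pelo stood at 369 FPKM at stage 2 against 27.2 to 103 and at 475 at stage 5 against 6.57 to 50.7. CSN3, a subunit of the COP9 signalosome, stood at 143 FPKM against 26.1 to 59.1 at stage 2, and at 537 against 52.2 to 203 at stage 5. In neither gene did D. sechellia overlap the others at either stage.

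The lower stage 2 calls were led by values near 0, which, like an exact 0, may be failed estimates. The mRNA of alphaSnap, whose protein helps to take SNARE complexes apart after membrane fusion, was below 0.001 FPKM at both stages in D. sechellia, and at least at 22.4 and 8.17 FPKM in the others (stage 2 adjusted p = 0.000767 by limma). The gene gfzf, which encodes a factor in the inviability of hybrids between D. melanogaster and D. simulans, was below 0.001 FPKM at both stages against at least 13.4 and 16.3, and was called at both (adjusted p = 0.000964 at stage 2 and 0.0470 at stage 5). Both stayed below 1 FPKM and so are not among the 3444 genes. Of the 320 genes left out for this reason, 5 had a median of at least 10 FPKM over both stages of the other species, these 2 and CG17726, CG33169 and CG34008. The gene fu2 had 1.85 and 0.228 FPKM against at least 22.3 and 19.2 and was called at both stages. The calcium-dependent kinase gene CaMKI (18.7 FPKM against 40.1 to 116), the lectin chaperone gene Cnx99A (16.0 against 50.3 to 99.4), Reps (3.80 against 11.9 to 29.9) and the Mediator subunit gene MED11 (7.78 against 16.2 to 47.8) were also lower at stage 2. So were CG9265 (9.61 FPKM against 24.6 to 63.9) and CG4552 (4.40 against 14.9 to 32.2). CG7033 was called lower at stage 5.

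**Figure D4:**
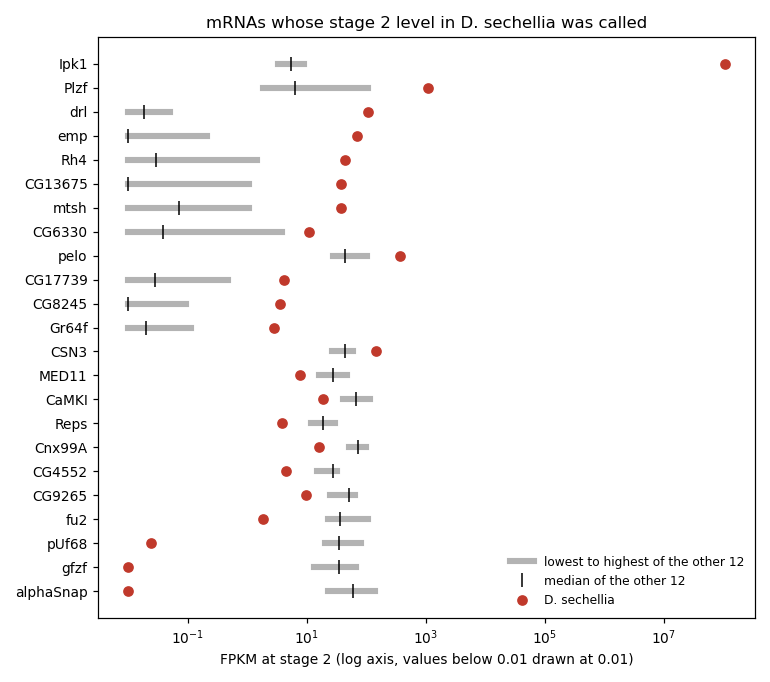
FPKM at stage 2 (horizontal log axis; values below 0.01 drawn at 0.01) for the 23 mRNAs whose stage 2 level in D. sechellia (red points) was called higher or lower than in the other 12 species (grey bars from lowest to highest, tick at the median). In each row the red point lies outside the grey bar, with 13 above and 10 below.

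Genes were also counted by class, with no test. At stage 2, 14 of the 3444 genes were below 1 FPKM in D. sechellia with a median of at least 5 in the others, and 24 were at 5 or more with a median below 1. The other species had 7 to 33 and 16 to 51 such genes. Values near 0 may be failed estimates here too. Among the 14 were the splicing-related gene holn1 (below 0.001 FPKM against a median of 36.8), the Mediator subunit gene MED4 (22.0) and the COP9 subunit gene CSN8 (16.9), all of which were at 17.3 to 58.2 FPKM at stage 5. For MED4 and CSN8 the lowest of the other species was also below 0.001 FPKM at stage 2. At stage 5, 24 genes were below 1 FPKM with a median of at least 5 and 27 were at 5 or more with a median below 1, where the other species had 16 to 56 and 14 to 41. The first group held Smn, Sas-4, which encodes a centriole protein (0.833 FPKM against 3.52 to 37.9), and dj-1beta, a homologue of the Parkinson disease protein DJ-1 (0.591 against 1.01 to 241). Sas-4 and dj-1beta were at 24.1 and 17.0 FPKM at stage 2.

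A value of exactly 0 can be a failed estimate, and 67 of the 3444 genes were listed at 0 at stage 2 and 3 at stage 5. CG13365 was listed at 0 at stage 2, where the median of the others was 9.59 FPKM, and at 6.26 at stage 5. Its stage 2 value was also below 0.001 FPKM in D. simulans and was 0.443 in D. mauritiana. CG6405 and Kua were listed at 0 at stage 2 against medians of 2.76 and 0.665 FPKM. CG12512, CG33056 and CG13698 were listed at 0 at stage 5 against medians of 1.04, 0.743 and 0.198 FPKM, and at 2.81 to 13.6 at stage 2. D. simulans was also listed at 0 for CG6405 at stage 2 and for CG33056 at stage 5, where D. mauritiana had 10.5 and 0.0523 FPKM. A further 11 genes at stage 2 and 7 at stage 5 had values between 0 and 0.001 FPKM with a median of at least 1 in the others.

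Most patterning genes of the blastoderm had departures below 1. Of the lists given here and in the next paragraphs, no member was called in the 3722-gene test, whose background is 0.134%, and the median departure of all tested genes was -0.09. All 5 measured pair-rule genes lay within 1 of the others (median departure -0.45), as did all 5 segment polarity genes (-0.38) and 7 of 8 gap and terminal genes (-0.06, and 0.02 with equal totals). Of 14 zygotic dorsoventral genes, 13 lay within 1 (median -0.24). Of the cellularization genes, Bro reached 331 FPKM at stage 5 and slam 159, and halo, which steers lipid droplets, reached 265 against a median of 533 in the others. The list's median departure of 0.10 turned negative with a pseudocount of 0.1 (-0.40) and without D. simulans, D. yakuba, D. santomea, D. pseudoobscura, D. persimilis or D. mojavensis (-0.14 to -0.09). All 7 sex determination genes lay within 1 of the others. The maternal axis genes had 6 of 7 within 1, and bcd had a change of -5.84, outside the -5.24 to -2.15 of the 12 others, from 76.0 FPKM at stage 2 against at most 61.7.

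The germline lists held both higher and lower departures. Over all 3722 genes tested, 9.78% departed higher by at least 1 and 14.5% lower. Of 8 germ plasm genes, 3 departed lower by at least 1 and none higher (median departure -0.45). They were pgc, which silences transcription in germ cells (334 to 4.41 FPKM), gcl, which germ cell formation needs (169.7 to 18.6) and the transport adaptor gene BicD (71.7 to 3.92), and all were within the range of the others. The departure of BicD turned to 0.23 within the melanogaster subgroup, where D. simulans had 2.15 FPKM, D. mauritiana 4.997 and D. erecta 0.958 at stage 5. Of 5 genes of the piRNA pathway, which silences transposons, 3 departed lower by at least 1 and none higher (median -1.78). The helicase gene spn-E went from 59.0 to 1.03 FPKM, below the 1.69 to 132 of the others at stage 5, SoYb from 7.97 to 0.872 and papi from 16.4 to 0.705. D. simulans and D. mauritiana were also low at stage 5 for spn-E (1.69 and 2.60) and papi (0.745 and 0.266), and not for SoYb (4.30 and 24.4). The other 2 stayed within 1, though Hen1 was just under it at 0.999, with a change above all others (2.28 against at most 1.75). The Argonaute gene piwi was at 53.3 FPKM at stage 5 against a median of 20.4, and Hen1, the small RNA methyltransferase gene, at 60.5 against 15.7. In a wider table, described below, 14 germ plasm genes were measured, of which 2 departed higher and 3 lower (median -0.20). Of 15 piRNA genes there, 4 departed higher and 5 lower, and their median was 0.34. Over all tested genes of that table, 10.3% departed higher and 12.5% lower. There krimp ended at 41.8 FPKM at stage 5 against 0.525 to 20.3 in the others, zuc at 181 against 10.5 to 144 and BoYb at 62.1 within 0.0821 to 107.

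The cell cycle list had 1 of 7 genes departing higher and 3 lower, where 9.78% of all genes tested departed higher and 14.5% lower. The germline Cdc25 phosphatase gene twe was at 29.4 FPKM at stage 5, above the 1.66 to 10.5 of the others, and at 123 at stage 2 against a median of 83.9. Its somatic counterpart stg was at 14.3 FPKM against a median of 17.8, a departure of -0.13. The ATR kinase gene mei-41 went from 10.1 to 4.24 FPKM, and the Cdk inhibitory kinase gene Wee1 from 36.4 to 13.4. CycE stayed at 177 and 178 FPKM while the median of the others went from 125 to 210.4. For Wee1 and CycE the closest relatives were near these values. The change of Wee1 was -1.38 in D. sechellia, -1.32 in D. simulans and -1.47 in D. mauritiana, and that of CycE 0.01, 0.19 and -0.26. For twe, D. simulans and D. mauritiana had 7.26 and 10.5 FPKM at stage 5. The change of mei-41 was -1.09 in D. sechellia, below the lowest of the others (-0.77), with -0.57 in D. simulans and -0.68 in D. mauritiana. Of 6 regulators of maternal mRNA, gnu departed by -1.50 and the RNA-binding protein gene Fmr1, at 79.8 and 10.08 FPKM, by just past -1. The translational repressor gene aret changed by -6.25, against a median of -6.29. The change of gnu was -6.42, against -6.67 in D. simulans and -7.09 in D. mauritiana. Among 3 genome activation factors Stat92E departed by -1.33, with a change of -1.21 against -0.77 and -1.41 in these relatives. In the wider table vfl, which encodes the pioneer factor Zelda, stood at 38.4 and 39.1 FPKM in D. sechellia. Its stage 5 value was below those of all other species, 44.8 to 218, and its change of 0.03 against a median of 1.43 was not called.

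Chaperone, metabolic and housekeeping lists mostly stayed near the other species. All 37 ribosomal protein genes lay within 1 (median -0.11, positive after quantile normalisation at 0.22, with equal totals at 0.14 and within the melanogaster subgroup at 0.12), though reads of near-identical copies can be split between them. Of 41 mitochondrial ribosomal protein genes 38 lay within 1, and of 18 proteasome genes 16. Of 5 heat shock and cognate genes, 2 departed lower, the mitochondrial cognate Hsc70-5 (209 to 3.56 FPKM, with 0.984 in D. simulans and 5.51 in D. mauritiana at stage 5) and the endoplasmic reticulum cognate Hsc70-3 (453 to 76.5). Respiratory chain subunits had 12 of 54 departing lower and 1 higher in the wider table (median -0.35), where 12.5% of all genes departed lower and 10.3% higher. ATPsynC went from 1433 to 268 FPKM, below the 377 to 3235 of the others at stage 5. COX7A (150 at stage 5 against 234 to 837) and ND-15 (121 against 127 to 952) also ended below all others, and none was called.

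Genes linked to chemical defence and to the host fruit moved both ways. Of 11 detoxification genes, 4 departed higher and 2 lower (median 0.40), where 9.78% of all genes tested departed higher and 14.5% lower. The glutathione transferase gene GstT4 reached 18.9 FPKM at stage 5 against at most 12.0 in the others, and the cytochrome P450 genes Cyp312a1 to 9.40 against at most 7.86 and Cyp4ae1 to 12.5 against at most 8.40. Cyp310a1 reached 242 FPKM, within the others' range of 30.1 to 324. The ecdysone-degrading P450 gene Cyp18a1 went from a listed 0 to 1.64 FPKM, below the 2.45 to 13.8 of the others. Of 31 such genes in the wider table, 10 departed higher and 9 lower, where 10.3% and 12.5% of all its tested genes did. Cyp308a1 and Ugt86Dd were called higher there, where 0.261% of the 8443 genes were called higher and 0.154% lower. Both passed the filter of that table through D. sechellia alone, so these calls are descriptions. Catsup, a regulator of dopamine synthesis tied to egg production in D. sechellia, went from 47.4 to 163 FPKM, against a median of 40.8 to 83.3 and a stage 5 range of 9.61 to 196. D. simulans had a change of 1.37 and D. mauritiana of 1.55, beside 1.76 in D. sechellia. It was the only gene of the host fruit list that was measured, and its departure of 1.16 was not called.

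The wider table holds 17674 genes with an ortholog in any species. A test needed values at both stages in D. sechellia and at least 9 other species, and 1 FPKM in any column. There were 8443 such genes, tested in the same way. Of these, 6603 reached 1 FPKM in D. sechellia, and 22 were called higher (0.261%) and 13 lower (0.154%). Against the 4 other mixed species 1 was called higher and 1 lower. Over 19 settings, 1 of these 35 genes, Ipk1, was called in every one. Of the 22 higher genes, 20 were below 1 FPKM at stage 2 in D. sechellia, and for 13 of the 22 every other species was below 1 FPKM at stage 5. These 13 stayed below 1 FPKM in the others at stage 2 as well. They entered the test through D. sechellia alone, so their calls describe that selection and lend no support.

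The kinase gene sff rose from 0.0561 to 155 FPKM, where no other species passed 0.979 at stage 5 (departure 7.13). The drosulfakinin receptor gene CCKLR-17D3 reached 134 FPKM against at most 0.771, and the P450 gene Cyp308a1 54.7 against at most 0.155. The glucuronosyltransferase gene Ugt86Dd reached 15.8 FPKM against at most 0.244, the potassium channel gene Sh 13.2 against at most 2.19 and the larval storage protein gene Lsp2 13.1 against at most 1.90. The neuropeptide gene Mip reached 6.83 FPKM against at most 0.0847 and the receptor gene Ir54a 4.33 against at most 1.02. Eip78C, an ecdysone-induced nuclear receptor gene, was at 9.94 FPKM at stage 2 and 39.8 at stage 5, against at most 0.680 and 0.222, and was called in 12 of the 19 settings. In l(3)psg2 the rise was from 32.1 to 570.3 FPKM, where the others had 3.82 to 34.5 at stage 5. The lysosomal protease gene cathD differed from these: it rose from 0.190 to 56.7 FPKM in D. sechellia, and the others rose from a median of 198 to 431 to 1393, so it was lower than in all others at both stages.

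**Figure D5:**
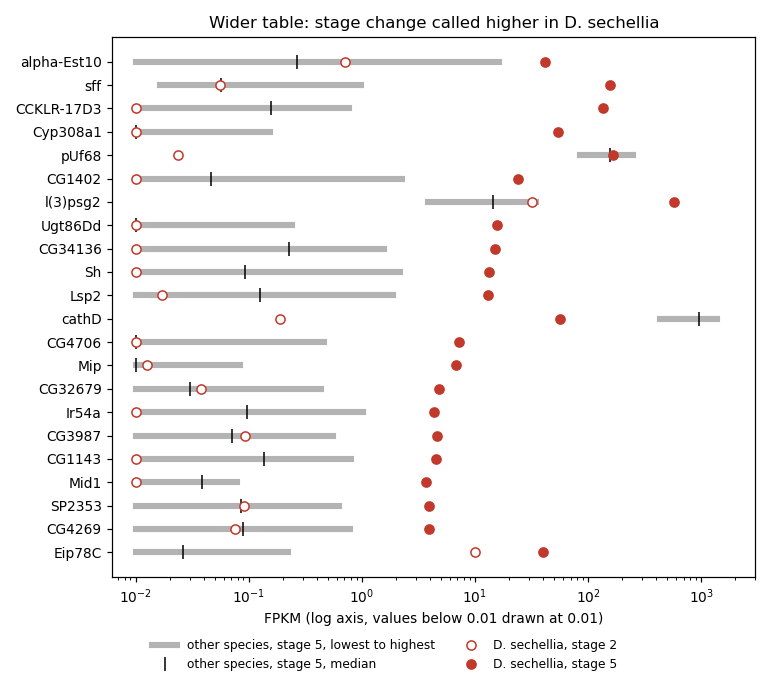
FPKM (horizontal log axis; values below 0.01 drawn at 0.01) of the 22 genes of the wider table whose stage change was called higher in D. sechellia, at stage 2 (open red circles) and stage 5 (filled red circles), with the stage 5 range (grey bars) and median (tick) of the other species. The filled circles of 20 genes lie to the right of the grey bars, that of pUf68 lies inside its bar and that of cathD to the left.

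The 13 genes called lower in the wider table mostly started from a high stage 2 level. In 11 of them the stage 2 level of D. sechellia was above all others, and in 7 the median of the others was below 1 FPKM. CG11898 fell from 137 to 15.3 FPKM, where no other species passed 0.00656 at stage 2 and 0.0743 at stage 5. CG9915 fell from 13548 to 319 FPKM against at most 153 at stage 2, and lig3, which encodes DNA ligase 3, from 463 to 36.6 against at most 25.3. The tetraspanin gene Tsp29Fb fell from 14.3 to 0.596 FPKM, the proton pump subunit gene Vha36-3 from 25.6 to 3.70 and the hormone receptor-like gene Lgr1 from 11.2 to 1.97, where the others had at most 0.605, 0.124 and 0.346 at stage 2. CG11898 and Vha36-3 stayed below 1 FPKM in every other species at both stages, so they too entered the test through D. sechellia alone. CG13428 was of another kind: it rose from a listed 0 to 1.82 FPKM, and to 103 to 849 in the others. TBPH and CG7033 were called in this table (adjusted p = 0.0255 and 0.0339), in 15 and 13 of the 19 settings.

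At least 5 FPKM in D. sechellia and less than 1 in each of at least 9 other species was found for 27 mRNAs at stage 2 and 15 at stage 5, of which 6 were the same. Counted in the same way, the other species had 10 to 46 (median 24.5) and 6 to 38 (median 14.5), so D. sechellia was near the middle. The highest was Ance-5, of the angiotensin-converting enzyme family, at 2567 FPKM at stage 2 and 10070.3 at stage 5, where no other species passed 0.365 and 3.47. The mechanosensory channel gene nompC stood at 177 and 741 FPKM against at most 0.616 and 1.82. The sugar receptor gene Gr5a was at 33.1 and 21.4 FPKM against at most 0.0465 and 0.389, tow at 54.0 and 74.8 against at most 0.141 and 0.245, and the chitin synthase gene kkv at 15.3 and 9.99 against at most 0.0307 and 1.12. The insulin-like peptide gene Ilp8 was at 17.5 FPKM at stage 2 and 56.4 at stage 5, where the others had at most 1.03 and 0.184. Of the 24 of these 27 with a D. melanogaster value, 0 reached 1 FPKM in its stage 2 embryos.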

How the data were processed

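The authors deposited 1 FPKM value per gene, species and stage, and the unit is read from the range of the values and the tools listed. Per the submitters' processing notes, cutadapt, TopHat2, Cufflinks, Cuffnorm and Cuffdiff were used. No tool version or genome build is given in the sources used here. TRIzol RNA and TruSeq libraries were made from single embryos, per the labels' protocols.

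Stage changes of log2(FPKM+1) were taken within each species. limma 3.58.1 (R 4.3.3) fitted D. sechellia against the other 12 species with a trended prior, two-sided, for the 3722 genes at 1 FPKM or more in any column, with Benjamini-Hochberg adjustment over all of them. A call needed an adjusted p under 0.05 and a departure of at least 1 of the same sign. Levels were tested likewise on median-centred columns. The procedure was tested on simulated data. The wider table was added after the data were seen. Its column names are shifted, so its values were read 1 place to the left of their names. The rule named up to 12 called genes each way with a change outside the range of the others, up to 8 called genes moving against them, called genes of the lists and up to 6 genes listed at 0. Every uncalled gene named besides these, and the genes named for their level or from the wider table, were chosen after their values were seen. The members and lists were chosen with earlier results of these data known. In all, 2 columns (D. melanogaster stage 5 in each table) were not used, and 2820 of the 3444 symbols matched current ones. Alternatives covered pseudocount, scaling, filters and the species compared.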

Additional observations from a re-analysis of the deposited data

Results flagged for a closer look

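The change from stage 2 to stage 5 in D. sechellia differed from that of the other 12 species, tested by limma on the difference itself, for 5 genes. The departures from the median of the others were 7.65 for alpha-Est10 and 5.34 for pUf68, and -6.74 for Plzf, -7.38 for drl and -23.20 for Ipk1, in log2(FPKM+1). For drl, Plzf, Ipk1 and pUf68 the level at stage 2 was also called different, and for alpha-Est10 the level was called at neither stage. The cause of these differences was not tested, and each rests on 1 value per stage in D. sechellia. Those of Ipk1 and pUf68 at stage 2 may be failed estimates.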

How the results depend on the processing

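No paired analysis was possible because the columns pool the embryos of a group and carry no replicate numbers. As reported, 2 and 3 genes were called higher and lower in the change, 13 and 10 at stage 2 and 2 and 3 at stage 5, and 15 moved against the others. With a pseudocount of 0.1 the change gave 4 and 5 calls, stage 2 gave 16 lower, stage 5 gave 1 higher and 6 lower, and 28 genes moved against the others. With a pseudocount of 5 the change gave 1 higher call, stage 5 gave 6 and 0, 213 genes departed higher and 6 moved against. Median-centred differences gave 1 higher call. Quantile normalisation gave 1 higher call, 10 higher at stage 5 and a median departure of 0.029. Equal totals gave 5 higher at stage 5, 8 against and a median of 0.079. The 4 other mixed species gave 0 higher calls in the change, 2 lower at stage 2, 0 and 0 at stage 5, a departure of -0.24 for mRpL9, and 1 and 1 calls in the wider table. The 7 species without the mixed label at either stage gave 1 higher call, 0 lower at stage 5 and 27 against. Without D. pseudoobscura and D. miranda, 9 moved against. The melanogaster subgroup gave 1 higher and 0 lower at stage 5, and departures of 0.13 for CG13698, 0.23 for BicD and -0.51 for Pfk. Without D. simulans and D. mauritiana there were 5 higher at stage 5 and 27 against. The wider table gave 22 and 13 calls, and 22 lower with equal totals. Leaving out genes with values of 100000 FPKM or more gave 1 higher call. Leaving out 1 species at a time gave 1 to 2 higher and 3 to 4 lower calls in the change, 10 to 16 and 9 to 12 at stage 2, and 2 to 4 and 2 to 4 at stage 5. It gave 337 to 386 higher and 489 to 581 lower departures, 12 to 23 against, a median of -0.14 to -0.10, and 18 to 27 and 12 to 16 calls in the wider table. The single higher call arose without D. mauritiana, D. santomea, D. erecta, D. pseudoobscura, D. persimilis, D. miranda, D. willistoni or D. mojavensis. The cause of these shifts was not tested. Depth is unknown, so values near 0 cannot be given a floor.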
